A study of Rattus norvegicus with 8 samples.

Results

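Chylomicrons are the large fat-carrying lipoproteins that enterocytes, the absorptive cells of the small intestine, build after a meal. The 9 genes described here encode apolipoproteins (Apob, Apoa1, Apoa2, Apoa4, Apoc2, Apoc3 and Apoe) and 2 proteins that load and export the particle (Mttp and Sar1b). They were chosen by exact gene symbol in the deposited gene table, which lists 52753 loci. Each symbol had 1 locus, and 8 of the 9 passed the filter on low counts and were tested.

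The series measured mRNA by stranded sequencing of the whole small intestine, emptied of its contents, of rats of the Sprague Dawley strain on postnatal day 21. The 4 CF libraries are labelled as coming from rats with cystic fibrosis, the disease of the anion channel gene Cftr, and the 4 WT libraries are labelled wild type. The labels do not give the Cftr allele, the sex, the litter or the diet, nor do they say that each library is a separate animal, so p-values measure only the spread between these libraries. Within each group the deposited table numbers the libraries 0 to 3, and these numbers only name them. Each library held 15.3 M to 20.9 M assigned fragments, with the fewest in WT libraries 0 and 3, at 15.3 M each. Cftr transcript, the check on the label, averaged 97.3 ± 6.40 CPM (fragments scaled to library size; SD, n = 4) for CF against 94.8 ± 14.7 CPM for WT (exact two-sided permutation test, p = 0.83, where 0.0286 is the smallest value that 4 against 4 allows), so its level did not separate the groups.

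Enterocytes take up fatty acids and monoglycerides, rebuild triglyceride at the endoplasmic reticulum, and place it on a newly made apolipoprotein B chain. The microsomal triglyceride transfer protein, encoded by Mttp, carries the lipid onto that chain, and the small GTPase encoded by Sar1b helps to form the coat of the vesicles that take the particle to the Golgi. Apolipoproteins A and C join the surface and later steer the handling of the particle by lipases, transfer proteins and receptors.

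The RefSeq table of promoters (build GRCr8) held windows for 4 of the 9 genes, Apoa4, Apoc2, Apoe and Sar1b. The 250 bases before the start are shown for Apoa4 and Apoc2, since these are the members with the widest spread among WT libraries relative to their level. Capitals mark matches, on either strand, to 4 short motifs, which were searched for separately. The TATA box was searched for as TATAAA. A core of the sequence bound by the nuclear receptor HNF4 was searched for as AAAGTCC. A single copy of the nuclear receptor element was searched for as AGGTCA. The core of the cyclic AMP response element was searched for as TGACGT. No match overlapped another.
Apoa4, chr8:55435529-55435778, plus strand: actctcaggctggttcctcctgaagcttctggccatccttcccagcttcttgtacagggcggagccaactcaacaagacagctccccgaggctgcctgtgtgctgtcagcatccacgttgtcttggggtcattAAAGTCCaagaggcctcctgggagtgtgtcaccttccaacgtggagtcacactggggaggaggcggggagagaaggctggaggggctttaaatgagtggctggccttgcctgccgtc
Apoc2, chr1:88462366-88462615, minus strand: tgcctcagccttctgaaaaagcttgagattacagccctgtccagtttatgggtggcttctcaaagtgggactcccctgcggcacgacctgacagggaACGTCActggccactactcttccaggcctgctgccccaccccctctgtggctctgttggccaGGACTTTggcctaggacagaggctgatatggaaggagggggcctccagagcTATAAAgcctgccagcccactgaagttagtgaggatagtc
The Apoa4 window held AAAGTCC from 117 to 111 bases before the start. The Apoc2 window held the reverse complement of the same 7 letters, GGACTTT, from 91 to 85 bases before the start. It also held TATAAA from 40 to 35 bases and ACGTCA, the reverse complement of TGACGT, from 153 to 148 bases before the start. None of the 4 motifs was found in the windows of Apoe, which has 3 listed starts, or of Sar1b. Among all 33469 promoter windows of this length, 3.99% held AAAGTCC, 12.9% held TATAAA, 14.1% held AGGTCA and 6.95% held TGACGT on either strand. A match is a description of the letters and not evidence of a bound site.

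No member differed detectably between CF and WT. Of the 8 tested members 0 were called at an adjusted p below 0.05 (edgeR quasi-likelihood test with Benjamini-Hochberg adjustment over all tested loci), where 28 of 16941 loci were called (0.165%). At an unadjusted p below 0.05 the count was also 0, where 15.1% of all loci passed, and DESeq2 and limma-voom also called 0 members. In none of the 8 did the CF and WT libraries separate completely, which 8.78% of all loci did. Apoa1, Apoe and Sar1b were higher in CF on average and Apoa4, Apob, Apoc2, Apoc3 and Mttp lower, with a median log2 fold change (CF over WT) of −0.19, against −0.00 over all tested loci. The 95% interval of Apoe, not adjusted for the number of loci, spanned folds of 0.924 to 1.37, and that of Apoc2 spanned 0.326 to 1.56. Differences within these intervals were not excluded. In whole tissue, fewer cells of a type and less RNA per cell cannot be told apart.

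**Figure D1:**
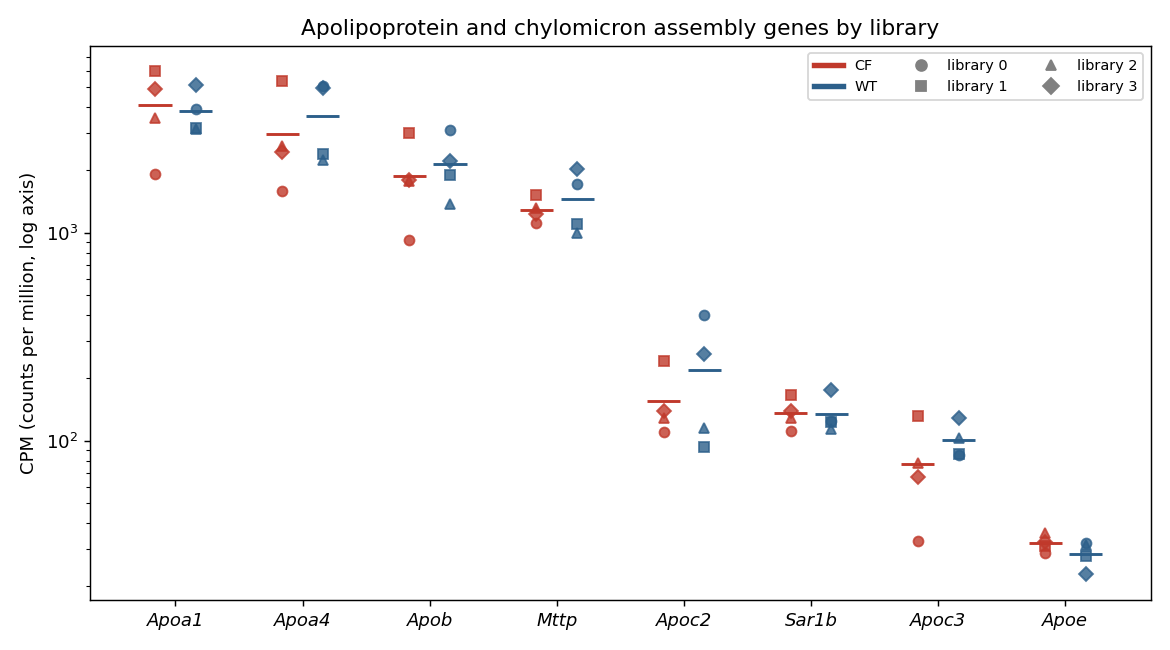
CPM of the 8 tested members (log axis) in each of the 4 CF (red) and 4 WT (blue) libraries, with the library number as the symbol and the group mean as a bar. The groups overlap at every gene, and CF library 0 is the lowest point for Apoa1, Apoa4, Apob, Apoc3 and Sar1b.

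Apob encodes the structural protein of the chylomicron, 1 copy of which stays with the particle throughout (chromosome 6, 33176778 to 33224997, Rnor_6.0). It was at 918, 3001, 1765 and 1787 CPM in CF libraries 0 to 3 and at 3116, 1895, 1379 and 2212 CPM in WT libraries 0 to 3. CF library 0 was the lowest of all 8 and WT library 0 the highest, closely followed by CF library 1, so the group ranges overlapped widely. The means were 1868 ± 857 CPM in CF and 2150.3 ± 729 CPM in WT (SD, n = 4). The log2 fold change was −0.20 (SE 0.35, edgeR adjusted p = 0.823), and it was 0.02 without CF library 0 and 0.03 without WT library 0, so its sign rests on single libraries.

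Apoa1 encodes the main protein of high-density lipoprotein, which enterocytes also place on chylomicrons (chromosome 8, 50525091 to 50526875). It ranked 7th of all loci by CPM and 8th by FPKM (fragments scaled to transcript length and library size). CF libraries 0 to 3 had 1925, 5983, 3541 and 4906 CPM, and WT libraries 0 to 3 had 3913, 3195, 3152 and 5128 CPM. The lowest and the highest value both lay in CF, which enclosed the WT range. The means were 4089 ± 1755 and 3847 ± 923 CPM, with a log2 fold change of 0.09 (SE 0.32, edgeR adjusted p = 0.924). Without CF library 1 the log2 fold change was −0.15 and without CF library 0 it was 0.32, neither of them called. An unnamed locus, AABR07070085.1, has the same span as Apoa1 and took 1.07 to 4.63% of the fragments of the pair, and the table gives no strand for either.

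Apoa4 encodes an intestinal apolipoprotein that rises with fat absorption and acts as a satiety signal (chromosome 8, 50537009 to 50539376). It was at 1579, 5359.5, 2618 and 2436 CPM in CF libraries 0 to 3 and at 5045, 2378, 2232 and 4948 CPM in WT libraries 0 to 3. In WT the libraries lay in 2 pairs, libraries 0 and 3 high and libraries 1 and 2 at less than the mean. In CF only library 1 reached the higher level. The means were 2998 ± 1638 and 3651 ± 1556 CPM, with a log2 fold change of −0.28 (SE 0.41, edgeR adjusted p = 0.784). With a library left out it ran from −0.73 without CF library 1 to −0.07 without CF library 0, and it was −0.09 without WT library 0 and −0.10 without WT library 3, none of them called. The ratio of Apoa4 to Apoa1 on the FPKM scale was 0.334 ± 0.0727 in CF and 0.427 ± 0.101 in WT (SD, n = 4). It ran from 0.231 to 0.402 in CF and from 0.348 to 0.560 in WT, and the ranges overlapped.

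Apoa2, which encodes another protein of high-density lipoprotein (chromosome 13, 89597138 to 89598802), was hardly counted. The 8 libraries held 3 fragments in all, 1 in CF library 2 and 2 in CF library 3, and it was not tested. A count of 0 allows up to 3 fragments, which is 0.144 to 0.197 CPM before TMM scaling in these libraries, counting error only. Apoa1, its partner on high-density lipoprotein, had 581691 fragments in the same libraries.

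Apoc2 encodes the cofactor that lipoprotein lipase needs to clear chylomicron triglyceride (chromosome 1, 80589023 to 80594136). Its values were 109.8, 243, 128 and 139 CPM in CF libraries 0 to 3 and 402, 92.8, 115 and 260.5 CPM in WT libraries 0 to 3. WT libraries 0 and 3 were high and WT libraries 1 and 2 low, as for Apoa4, and the highest WT library had 4.34 times the lowest. WT libraries 0 and 3 also held the fewest fragments, and the part of depth was not tested. The means were 155 ± 59.8 and 218 ± 144 CPM, with a log2 fold change of −0.49 (SE 0.49, edgeR adjusted p = 0.682). That was the lowest fold change among the members, and without WT library 0 it was −0.01.

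Apoc3 encodes an inhibitor of lipoprotein clearance (chromosome 8, 50529314 to 50532050). CF libraries 0 to 3 were at 33.0, 131, 77.7 and 67.2 CPM, and WT libraries 0 to 3 at 85.7, 85.9, 103 and 128 CPM. Of the CF libraries 0, 2 and 3 lay below every WT library, while CF library 1 lay above them all. The means were 77.2 ± 40.7 and 101 ± 20.1 CPM, with a log2 fold change of −0.38 (SE 0.36, edgeR adjusted p = 0.660). Without CF library 1 it was −0.76 with an adjusted p of 0.279, and without CF library 0 it was −0.13.

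Apoe encodes the ligand through which remnant particles reach their receptors on cells, and many cell types make it, macrophages among them (chromosome 1, 80612892 to 80617057). It was at 28.9, 31.3, 36.1 and 32.6 CPM in CF libraries 0 to 3 and at 32.1, 27.9, 31.7 and 22.7 CPM in WT libraries 0 to 3. WT library 3 was lowest and CF library 2 highest, with the other 6 between 27.9 and 32.6 CPM. The means were 32.2 ± 2.99 and 28.6 ± 4.34 CPM, and the log2 fold change was 0.17 (SE 0.13, edgeR adjusted p = 0.559), higher in CF under all 16 alternatives of test, scaling, filter, unit and libraries. Without WT library 3 it was 0.08. The signs of Apoa4, Apoc2 and Apoc3, lower in CF, also held under all 16, which reuse the same libraries. Of 10 macrophage markers, 3 were higher and 7 lower in CF, with 0 called against 0.165% of all tested loci. The macrophage markers summed to 1033 to 1072 CPM in CF and 985 to 1748 CPM in WT, and their part in the Apoe level was not tested.

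Mttp encodes the lipid transfer subunit without which no chylomicron forms (chromosome 2, 243366181 to 243407608). It was at 1108, 1514, 1312 and 1231 CPM in CF libraries 0 to 3 and at 1706, 1097, 993 and 2014 CPM in WT libraries 0 to 3. All 4 CF libraries lay inside the WT range. The means were 1291 ± 171 and 1452 ± 489 CPM, with a log2 fold change of −0.17 (SE 0.23, edgeR adjusted p = 0.767), which was 0.03 without WT library 3.

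Sar1b, mutated in human chylomicron retention disease, encodes the GTPase of the COPII coat (chromosome 10, 37215937 to 37245658). It was at 111, 166, 129 and 138 CPM in CF libraries 0 to 3 and at 124, 122, 114 and 175 CPM in WT libraries 0 to 3. CF library 1 and WT library 3 were the high libraries, and the other 6 lay between 111 and 138 CPM. The means were 136 ± 23.0 and 134 ± 27.7 CPM, with a log2 fold change of 0.02 (SE 0.16, edgeR adjusted p = 0.960). Under upper-quartile scaling it was −0.01.

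**Figure D2:**
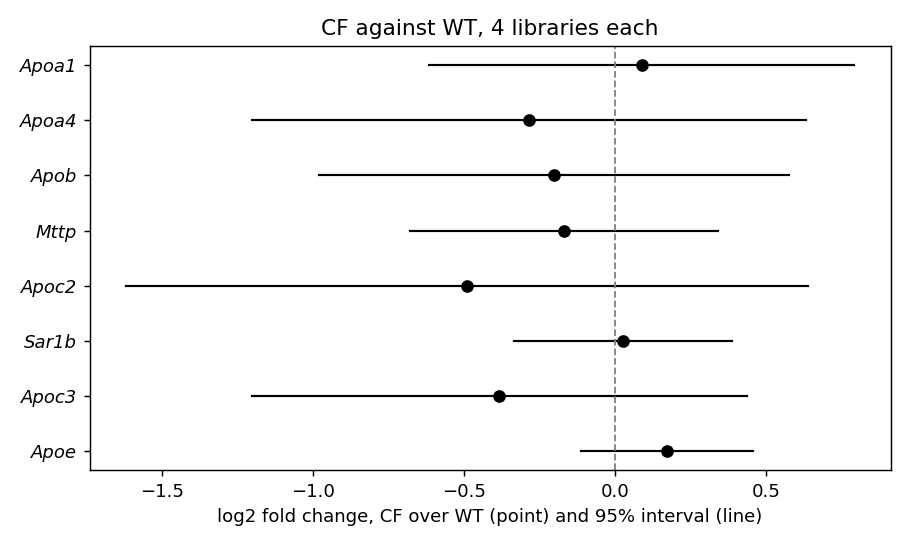
Log2 fold change of CF over WT for each tested member (point) with its 95% interval (line), from the edgeR fit on 4 CF and 4 WT libraries. Every interval crosses 0, and the narrowest is that of Apoe, from −0.11 to 0.46.

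Per length, the members ran from among the most abundant transcripts of the tissue to hardly any. Mean FPKM over the 8 libraries was 3814 for Apoa1, 1492 for Apoa4, 312 for Mttp, 291 for Apoc2, 202 for Apoc3, 132 for Apob, 122 for Sar1b, 24.3 for Apoe and 0.0495 for Apoa2. Apoa1 exceeded Apoa4 and Apoa4 exceeded Mttp in 8 of 8 libraries. Mttp exceeded Apoc2 in 7 and Apoc2 exceeded Apoc3 in 6, and Apob exceeded Sar1b in only 4 of 8, so these neighbours did not keep their order. The fragments of all 9 genes made up 1.02 ± 0.372% of a CF library and 1.18 ± 0.357% of a WT library (SD, n = 4), from 0.587% in CF library 0 to 1.55% in WT library 0. FPKM did not follow CPM library by library at every gene: Apoe, at 28.9 CPM, was listed at 33.0 FPKM in CF library 0, and at 31.3 CPM it was listed at 19.9 FPKM in CF library 1.

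The spread within each group was wide and had a pattern shared by most members. Relative to each gene's mean log2 CPM over the 8 libraries, CF library 0 was below 0 for all 8 tested members and CF library 1 above 0 for all 8. In CF library 0 Apoc3 was at −1.32, Apob at −1.04, Apoa1 at −0.97 and Apoa4 at −0.94 log2 units, while Mttp was at −0.27, Sar1b at −0.26 and Apoe at −0.06. WT library 3 was above 0 for the 7 members other than Apoe, and it was the lowest library for Apoe, at −0.41.

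Markers of the absorptive epithelium were also lowest in CF library 0 and highest in CF library 1, but did not follow the members in every library. The mean of 10 enterocyte digestion markers (lactase, aminopeptidase N and others), on the same scale, was −0.99 in CF library 0 and 0.22 to 0.41 in the other CF libraries, against −0.18 to 0.32 in WT. Of these 10, 6 were higher and 4 lower in CF with 0 called, where 0.165% of all tested loci were called. They summed to 4575 to 12296 CPM in CF and 8135 to 11780 CPM in WT. In CF library 2 their mean was 0.22, while every tested member other than Apoe was below 0. In CF library 3 it was 0.32, with Apoa1, Apoe and Sar1b above 0 and Apoa4, Apob, Apoc2, Apoc3 and Mttp below. The 12 markers of epithelial structure, 11 of them higher in CF with 0 called, stood at −0.35 in CF library 0 and 0.41 in CF library 1, and summed to 11057 to 18441 CPM in CF and 11658 to 14891 CPM in WT. Smooth muscle markers, 4 of 4 higher in CF with 0 called, summed to 4660 to 6218 CPM in CF and 2807 to 4195 CPM in WT, without overlap. Taken singly, 2 of these 4 separated completely, as 8.78% of all tested loci did. Tagln and Actg2, also on that list, had no locus of their own. The 6 ileal markers summed to 640.0 CPM in CF library 0, 1279 to 2288 CPM in the other CF libraries and 1366 to 2007 CPM in WT. The 7 proximal markers were also lowest in CF library 0, at 1107 CPM, against 2065 to 2700 CPM in the other CF libraries and 1427 to 3013 CPM in WT. Fabp1 alone made up most of that sum in every library, at 885 CPM in CF library 0. The mean of the 7 on the log2 scale was −0.62 in CF library 0, −0.25 in CF library 3 and 0.02 to 0.31 in the others. The part of cell composition in the members' values was not tested. WT library 0, the highest for Apob and Apoc2, was below the mean in the digestion markers, at −0.18, and had the highest mean of the 4 tested hepatocyte markers, at 0.89 against −0.40 to 0.10 in the other 7 libraries. The liver makes many of the same apolipoproteins. All 10 hepatocyte markers summed to 49.7 to 86.8 CPM in CF and 48.2 to 95.7 CPM in WT, with the highest sum in WT library 0. The next highest sum, 86.8 CPM, was in CF library 0, the lowest library for Apob. Tf and Fga made up most of the hepatocyte marker level, while Alb had 7 fragments over all 8 libraries and Ahsg 0. WT library 0 also had the highest mean of 5 tested adipocyte markers, at 0.37, and of 4 enteric glia markers, at 0.39. The part of these marker lists in the Apob and Apoc2 levels was not tested.

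**Figure D3:**
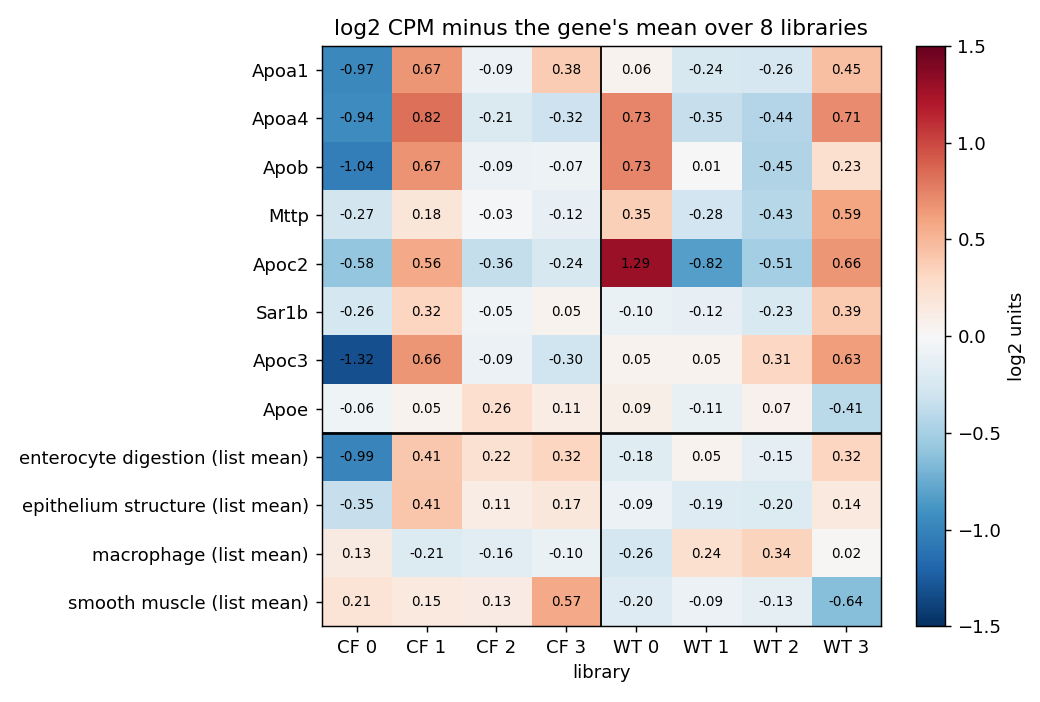
Log2 CPM minus the mean of that gene over 8 libraries (colour and printed value) for the 8 tested members, above the mean of 4 marker lists on the same scale, with libraries in columns. CF library 0 is negative in all 8 members and at −0.99 in the digestion markers. Apoe and Sar1b vary least, from −0.41 to 0.26 and from −0.26 to 0.39.

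Several members lie side by side in the genome. On chromosome 8, Apoa1, Apoc3, Apoa4 and Apoa5 fill 36.6 kb (50525091 to 50561736, Rnor_6.0). The first 3 of these genes were abundant, while Apoa5, which encodes an activator of triglyceride clearance, had 164 fragments in all. It ran from 0.0262 FPKM in CF library 0 to 1.91 FPKM in CF library 1, with the other 6 libraries at 0.0742 to 0.757 FPKM, where Apoa4 ran from 810.2 to 2430.2 FPKM. On chromosome 1, Apoc2, Apoc4, Apoc1 and Apoe fill 28.0 kb (80589023 to 80617057). Apoc2 and Apoe flank the other pair, with 26522 and 4582 fragments, against 2 for Apoc4 and 16 for Apoc1.

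**Figure D4:**
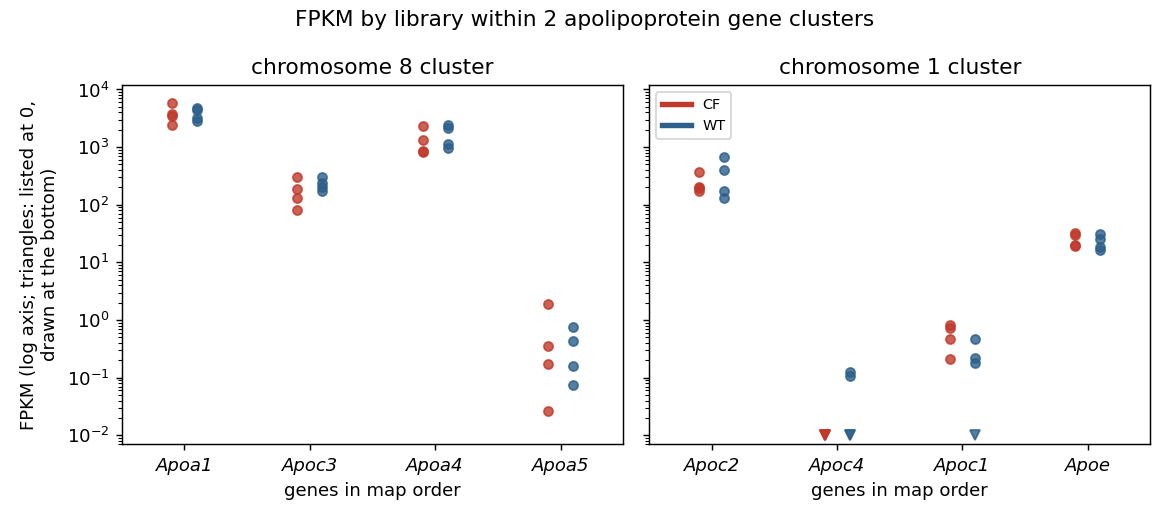
FPKM (log axis) by library for the genes of the chromosome 8 and chromosome 1 clusters in map order, CF in red and WT in blue; triangles mark values listed at 0. Apoa1, Apoc3 and Apoa4 lie between 80.6 and 5739 FPKM and Apoa5 at most 1.91, and Apoc2 and Apoe lie well above Apoc4 and Apoc1 in both groups.

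Genes that work with the members were examined in 5 lists. Of their 70 tested members 0 were called (edgeR, adjusted p below 0.05), where 0.165% of all tested loci were. At an unadjusted p below 0.05 there were 8, against 15.1% of all loci. DESeq2 called 3 of them, Lsr among them, and limma-voom called 0. Among 17 tested genes of particle assembly and export, 11 were higher and 6 lower in CF, with a median log2 fold change of 0.08. P4hb, which encodes protein disulfide isomerase, the partner subunit of the Mttp product, was at 2366 ± 279 CPM in CF against 2377 ± 524 CPM in WT. Plin3, which encodes a lipid droplet coat protein, was at 266 ± 66.6 and 228 ± 41.6 CPM. Sec31a, which encodes a part of the COPII outer coat, was at 229 ± 24.2 and 223 ± 18.4 CPM. Preb, which encodes the factor that loads Sar1 proteins with GTP, was the member of this list with an unadjusted p below 0.05, at 122 ± 13.7 and 101 ± 10.1 CPM (log2 fold change 0.28, adjusted p = 0.303).

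Of the 14 genes that supply triglyceride and cholesteryl ester, 10 were higher and 4 lower, with a median of 0.07. The fatty acid binding protein genes Fabp2 and Fabp1 were at 2426 ± 1252 and 1777 ± 647 CPM in CF, and at 2284 ± 821 and 1708 ± 667 CPM in WT. Acsl5, which encodes an acyl-CoA synthetase, was at 1211 ± 249 and 1198 ± 438 CPM. Agpat2, an acyltransferase gene of glycerolipid synthesis, was at 137 ± 22.4 and 101 ± 12.1 CPM (log2 fold change 0.44, edgeR adjusted p = 0.190). Cd36, which encodes a fatty acid receptor, was low, at 1.19 ± 0.349 and 2.11 ± 0.636 CPM (log2 fold change −0.82, edgeR adjusted p = 0.281).

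Of the 10 tested receptor and lipase genes, 6 were higher and 4 lower, with a median of 0.09, and 3 had an unadjusted p below 0.05, all higher in CF. Lsr, which encodes the lipolysis-stimulated lipoprotein receptor, was at 259, 315, 276 and 308 CPM in CF libraries 0 to 3 and at 212, 182, 211 and 238 CPM in WT libraries 0 to 3. Every CF library was above every WT library, and the groups separated completely at 8.78% of all tested loci. The means were 289 ± 26.5 and 211 ± 22.8 CPM, with a log2 fold change of 0.46 (SE 0.12, edgeR adjusted p = 0.136). DESeq2 called it (adjusted p = 0.0122), as did edgeR without the low-count filter (adjusted p = 0.0379). Those settings called 619 and 553 loci in all, against 28 in the edgeR fit used here, and no other alternative called Lsr. Lrp1, a remnant receptor gene, was at 162 ± 26.0 and 176 ± 84.5 CPM.

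Among 9 tested genes of other apolipoproteins and lipoprotein remodelling, 3 were higher and 6 lower, with a median of −0.16. Clu, which encodes clusterin, was at 57.4 ± 16.7 and 47.5 ± 10.8 CPM. Abcg5 and Abcg8, whose products together return sterols to the gut lumen, were at 23.3 ± 12.3 and 29.8 ± 19.0 CPM in CF and at 31.5 ± 10.2 and 36.5 ± 13.6 CPM in WT. Of 20 transcription regulators, 15 were higher and 5 lower, with a median of 0.05. Hnf4a and Creb3l3, which encode factors known to act on apolipoprotein genes, were at 625 ± 83.9 and 570 ± 172 CPM in CF and at 543 ± 60.5 and 448 ± 140 CPM in WT, and Hnf4g was at 274 ± 86.9 and 266 ± 36.6 CPM. Srebf2, which encodes the activator of cholesterol synthesis genes, was at 172 ± 16.4 and 145 ± 6.79 CPM (log2 fold change 0.25, edgeR adjusted p = 0.301). Nr2f1, an orphan nuclear receptor gene, was low, at 1.03 ± 0.0854 and 1.74 ± 0.452 CPM (log2 fold change −0.76, edgeR adjusted p = 0.220).

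Across 12812 other loci with 1 gene symbol, the profiles closest to that of Apoa4 over the 8 libraries included those of Hibch (Pearson r = 0.97), Pi4kb (0.97), Cyp2c7 (0.96) and Ncor1 (0.96). Those closest to Apob were Lrrc19, Hist1h4m, Trim2 and Mk1 (each 0.98) and Pi4ka (0.97). These values are the highest of many over 8 points that share libraries and their scaling, and are given as a description.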

How the data were processed

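Stranded mRNA libraries were sequenced, 4 from CF and 4 from WT intestine. The submitters' processing notes name Cuffdiff, StringTie, STAR 2.3.1z, cutadapt and bcl2fastq, with build Rnor_6.0; settings are not given in the sources used. Estimated counts are Cuffdiff's raw fragments per locus as deposited by the authors, of which 5.99% were fractional (among the members, those of Apoa1 and Apoa4), and they were rounded. The FPKM values were made by the authors with Cuffdiff, per the file headers. Another 2 per-library columns of the table were left aside. The table numbers libraries 0 to 3 and the titles run from 1 to 4, so the group of a library is known but not its title.

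Loci were filtered with filterByExpr (minimum count 10, total 15), leaving 16941 of 52753, scaled by TMM, and tested with the robust quasi-likelihood test of edgeR and Benjamini-Hochberg adjustment over all of them and a threshold of 0.05. CPM are on TMM-scaled library sizes, centred values use log2 CPM with a prior count of 2, and SE was taken as the log2 fold change divided by the root of the F statistic. The script was tested on simulated data. The members and lists were chosen with earlier results of these data known. All 9 members are named, with the called genes of each pathway list or else its 3 most abundant, and the 5 loci most like Apoa4 and Apob; some genes that these rules gave are left out of the text. Agpat2, Cd36, Preb, Srebf2, Nr2f1 and the marker genes were picked with their values in view, and list genes without a locus of their own were not analysed here. Promoters are from RefSeq (GRCr8), which is another build than that of the table, and give no coordinates for it. Alternatives changed the scaling, test, filter, unit, pairing and libraries. Fits ran in R 4.3.3 with edgeR 4.0.16, DESeq2 1.42.0 and limma 3.58.1. Tables and plots used pandas 2.3.3 and matplotlib 3.10.9 under Python 3.11.15.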

Additional observations from a re-analysis of the deposited data

How the results depend on the processing

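No member was called under any of the 16 alternatives, and the smallest adjusted p was 0.279 (Apoc3 without CF library 1, edgeR). The count of called loci (28) was 619 with DESeq2, 17 with limma-voom, 553 without the low-count filter, 11 on log2(FPKM + 1) and 2 on log2(FPKM + 0.1), and 5 to 128 with a library left out. The replicate block, on the library number, gave 11 called loci and no called member. The numbers are not known to pair libraries: correlations between same-numbered libraries were 0.07, −0.11, 0.16 and −0.01, and not every library was closest to its own number. The causes of these shifts were not tested.

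Of 128 member fits 15 changed sign. Apoa1 was at −0.0065 with limma-voom, −0.00089 on log2(FPKM + 1), −0.00090 on log2(FPKM + 0.1) and −0.00053 with the replicate block. With a library left out it ran from −0.15 to 0.32, Apob from −0.53 to 0.031, Mttp from −0.32 to 0.029 and Sar1b from −0.087 to 0.18. Sar1b was at −0.014, Acsl5 at −0.019 and Cftr at −0.0040 under upper-quartile scaling. With limma-voom Fabp2 was at −0.089, Hnf4g at −0.013 and P4hb at 0.0046. On log2(FPKM + 1) and log2(FPKM + 0.1) in turn, Fabp2 was at −0.12 and −0.12, Hnf4g at −0.055 and −0.057 and Sec31a at −0.0030 and −0.0034. With the replicate block Fabp2 was at −0.050, Hnf4g at −0.0041 and P4hb at 0.011, and without the filter P4hb was at 0.028. With a library left out Acsl5 ran from −0.14 to 0.28, Cftr from −0.065 to 0.096, Fabp1 from −0.12 to 0.35, Fabp2 from −0.18 to 0.40, Hnf4g from −0.11 to 0.24, Lrp1 from −0.33 to 0.24, P4hb from −0.094 to 0.14 and Sec31a from −0.025 to 0.095. Agpat2 was called without the filter (adjusted p = 0.0457, edgeR). With 4 libraries a group, differences within the unadjusted intervals of the members were not excluded. The intervals are not the limit of what a call could miss, since calls were adjusted over all tested loci.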

Other observations

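The locus that shares the span of Apoa1, AABR07070085.1, held 29.4, 121, 157 and 164 CPM in CF libraries 0 to 3 and 55.9, 85.5, 153 and 55.3 CPM in WT libraries 0 to 3, with a log2 fold change of 0.43 (edgeR adjusted p = 0.760). Its share of the fragments of the pair was highest in WT library 2, at 4.63%, and lowest in WT library 3, at 1.07%, where Apoa1 itself was at 5128 CPM. A second such locus, AABR07073400.1, has the span of Apoa4 and held 901 fragments in all, 0.0933 to 0.301% of the pair. Apoa1 and Apoa4 were the 2 members with fractional counts.

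The ratio of Apoc3 to Apoa1 on the CPM scale, neighbours on chromosome 8, was 0.0187 ± 0.00401 in CF and 0.0266 ± 0.00451 in WT (SD, n = 4). The highest CF value and the lowest WT value were both 0.0219, and the ratio was chosen after its values were seen and was not tested.

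Among the assembly and export genes, Mia3, which encodes a receptor that helps to load large cargo into COPII carriers, was the gene whose groups did not overlap, at 152 ± 6.97 CPM in CF against 134 ± 4.68 CPM in WT (log2 fold change 0.18, edgeR adjusted p = 0.359). Separate groups were found at 8.78% of all tested loci.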
